A study of Mus musculus with 18 samples.

Results

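The 9 germline and meiosis genes Dmrt1, Stra8, Hormad1, Rhox5, Dazl, Ddx4, Mael, Sycp3 and Tex101 were taken by name from a table of 25279 genes and followed across 6 groups of mouse cells. All 9 were in the table, and all 9 had enough counts to be tested, among 20267 genes tested in all. The groups were parental embryonic stem cells (ESCs) and cells of an Oct1 conditional knockout (cKO), each at day 0, before differentiation, and at day 3 and day 6 of a protocol that directs ESCs towards mesoderm. Oct1, a transcription factor of the POU family, is the product of Pou2f1. Each group held 3 bulk RNA libraries, 18 in all. The labels do not say which Cre or agent removed Oct1, whether a genotype is 1 clone, or whether libraries that share a group had cultures of their own. The p-values therefore measure only the spread between these libraries.

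Germ cells are set aside early in the mouse embryo, and many of their genes are silenced in other cells by DNA methylation and by repressor complexes that carry E2F6, MGA and MAX. Mouse ESCs in culture express a number of these genes even though they are not germ cells, and differentiation turns most of them off. Meiosis starts when retinoic acid and other signals switch on Stra8, after which axis and synaptonemal complex proteins such as HORMAD1 and SYCP3 assemble along the chromosomes. The proteins DDX4 and MAEL belong to the nuage, the cytoplasmic body in which small RNAs directed against transposons are made.

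Promoter windows were read for 8 of the 9 genes, because genes that move together may share promoter letters. The windows are from RefSeq on GRCm38.p6 and run from 250 bases before to 50 bases after the annotated start. Both strands were searched for the E-box CACGTG (bound by MAX partners), the E2F letters GCGGGAA, the letters AGGTCA read by retinoic acid receptors and the octamer ATGCAAAT of Oct1, and no match overlapped another. The 250 bases before the start of 4 genes follow, 5′ to 3′, with matches in capitals. Stra8 had the largest difference between genotypes at days 0 and 3, and Hormad1 and Sycp3 were lower in cKO at each day. Ddx4 was called at no day in the fit of all 18 libraries.
Stra8, chr6:34920698-34920947, plus strand: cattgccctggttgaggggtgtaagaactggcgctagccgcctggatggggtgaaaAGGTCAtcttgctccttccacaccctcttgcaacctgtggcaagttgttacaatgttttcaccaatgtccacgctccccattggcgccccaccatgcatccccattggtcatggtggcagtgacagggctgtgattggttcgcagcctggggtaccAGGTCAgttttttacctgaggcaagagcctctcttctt
Hormad1, chr3:95559427-95559676, plus strand: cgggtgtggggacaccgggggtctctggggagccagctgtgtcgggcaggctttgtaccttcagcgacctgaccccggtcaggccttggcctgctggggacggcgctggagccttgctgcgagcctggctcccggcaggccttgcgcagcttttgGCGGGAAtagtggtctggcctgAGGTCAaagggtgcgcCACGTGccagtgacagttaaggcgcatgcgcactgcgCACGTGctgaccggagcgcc
Sycp3, chr10:88459337-88459586, plus strand: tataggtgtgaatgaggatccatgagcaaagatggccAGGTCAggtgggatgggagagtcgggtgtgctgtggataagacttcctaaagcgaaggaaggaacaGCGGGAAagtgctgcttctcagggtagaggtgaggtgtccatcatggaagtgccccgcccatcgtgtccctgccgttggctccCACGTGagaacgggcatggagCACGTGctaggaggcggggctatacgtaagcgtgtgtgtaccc
Ddx4, chr13:112652311-112652560, minus strand: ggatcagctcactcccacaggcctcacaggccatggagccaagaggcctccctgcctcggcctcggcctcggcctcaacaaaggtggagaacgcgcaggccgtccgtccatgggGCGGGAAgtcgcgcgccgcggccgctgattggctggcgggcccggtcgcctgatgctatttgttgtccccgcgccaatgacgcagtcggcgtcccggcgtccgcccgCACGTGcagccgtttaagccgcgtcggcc

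In Stra8 both capital stretches are AGGTCA, and it held neither an E-box nor the E2F letters. Hormad1 and Sycp3 each held 2 E-boxes, 1 match to the E2F letters and 1 to AGGTCA, while Ddx4 held 1 E-box and 1 match to the E2F letters. An E-box was present in 4 of the 8 windows (7.15% of 32851 promoter windows of the same length), the E2F letters in 3 (4.6%), AGGTCA in 3 (16.3%) and the octamer in 0 (1.74%). The E-box and the E2F letters were found together in Hormad1, Sycp3 and Ddx4. Any part of these letters in the differences between genotypes was not tested. CpG dinucleotides numbered 38 in Ddx4, 28 in Dazl, 24 in Hormad1 and in Mael, 19 in Tex101, 15 in Sycp3, 10 in Stra8 and 5 in Rhox5, against a median of 7 over all windows. The Rhox5 window starts from a RefSeq start at position 37754608 of the X chromosome, upstream of position 37804842, where the GENCODE M21 gene begins. The RefSeq starts of Stra8 (34920948), Tex101 (24672050) and Ddx4 (112652310) lie inside the GENCODE genes, which begin at 34920163, 24676675 and 112652475. Those of Sycp3 (88459587), Dazl (50293620) and Mael (166238744) also lie inside, closer to the GENCODE starts of 88459569, 50293636 and 166238747. The Stra8 bases shown thus lie within the annotated gene, as do the last of those shown for Sycp3 and Ddx4. These matches describe letters and show no binding.

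Library totals ran from 13704958 to 26995420 counts. Pou2f1 stood between 123 and 142 CPM (counts scaled by library size with TMM factors) in the 9 parental libraries and between 62.2 and 95.4 CPM in the 9 cKO libraries. Of the ESC markers, Pou5f1 stood at 891 ± 40.7 CPM and Nanog at 988 ± 11.7 CPM (SD, n = 3) in parental day 0 cells, so the label was borne out there. Replicate 2 of cKO day 6 stood apart from the other libraries of its group, with a chi-square per degree of freedom over genes of 101 and 91.4 against up to 12.1 for every other pair within a group. Genes on chromosome 11 had a median log2 fold change of -0.35, -0.40 and -0.48 in cKO at days 0, 3 and 6, against 0, 0.01 and -0.07 for all other genes, and none of the 9 genes lies on it. The titles of day 0 libraries carry one prefix and those of days 3 and 6 another, so the change from day 0 to day 3 cannot be told apart from that difference. Each level that follows is a mean ± SD over 3 libraries. Each log2 fold change has its SE after the ± sign, and p was adjusted by Benjamini-Hochberg over all 20267 genes.

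The genotypes differed in most of these genes before differentiation began. These genes and the lists further on were chosen with earlier results of these data known, so counts set against all genes are a description. At day 0, 6 of the 9 genes were lower in cKO and none was higher, against 31.6% of all tested genes called (16.5% lower and 15.1% higher). The median log2 fold change was -0.81 over the 9 genes and 0 over all genes. In day 0 libraries alone Ddx4 (0.30; adjusted p = 0.0482) and Tex101 (0.58; adjusted p = 0.0416) were called higher in cKO. At day 3, 5 were lower and none higher, against 15.7% of all genes called (9.39% lower and 6.32% higher), with medians of -0.97 and -0.005. Without cKO day 6 replicate 2 the calls over all genes at day 3 rose from 3185 to 6068, and in day 3 libraries alone they were 5874, with 5 of the 9 genes called in that fit. At day 6, 6 were lower and none higher, against 45.6% called (25.7% lower and 19.9% higher), with medians of -2.46 and -0.09. Without cKO day 6 replicate 2 the day 6 count was 7. Hormad1 and Sycp3, both among the 6, had 25 and 13 summed counts in parental and 0 and 1 in cKO cells at day 6. In day 6 libraries alone these genes, Mael and Tex101 had too few counts to be tested, so fewer of the 9 were called. The 2 groups did not overlap for 7, 6 and 6 of the 9 genes at days 0, 3 and 6, against 52.4%, 40.1% and 51.5% of all genes. Dmrt1, Stra8, Hormad1, Rhox5 and Sycp3 were lower at every day, and Dazl at days 0 and 6. Ddx4, Mael and Tex101 were not called at any day in the fit of all 18 libraries.

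**Figure D1:**
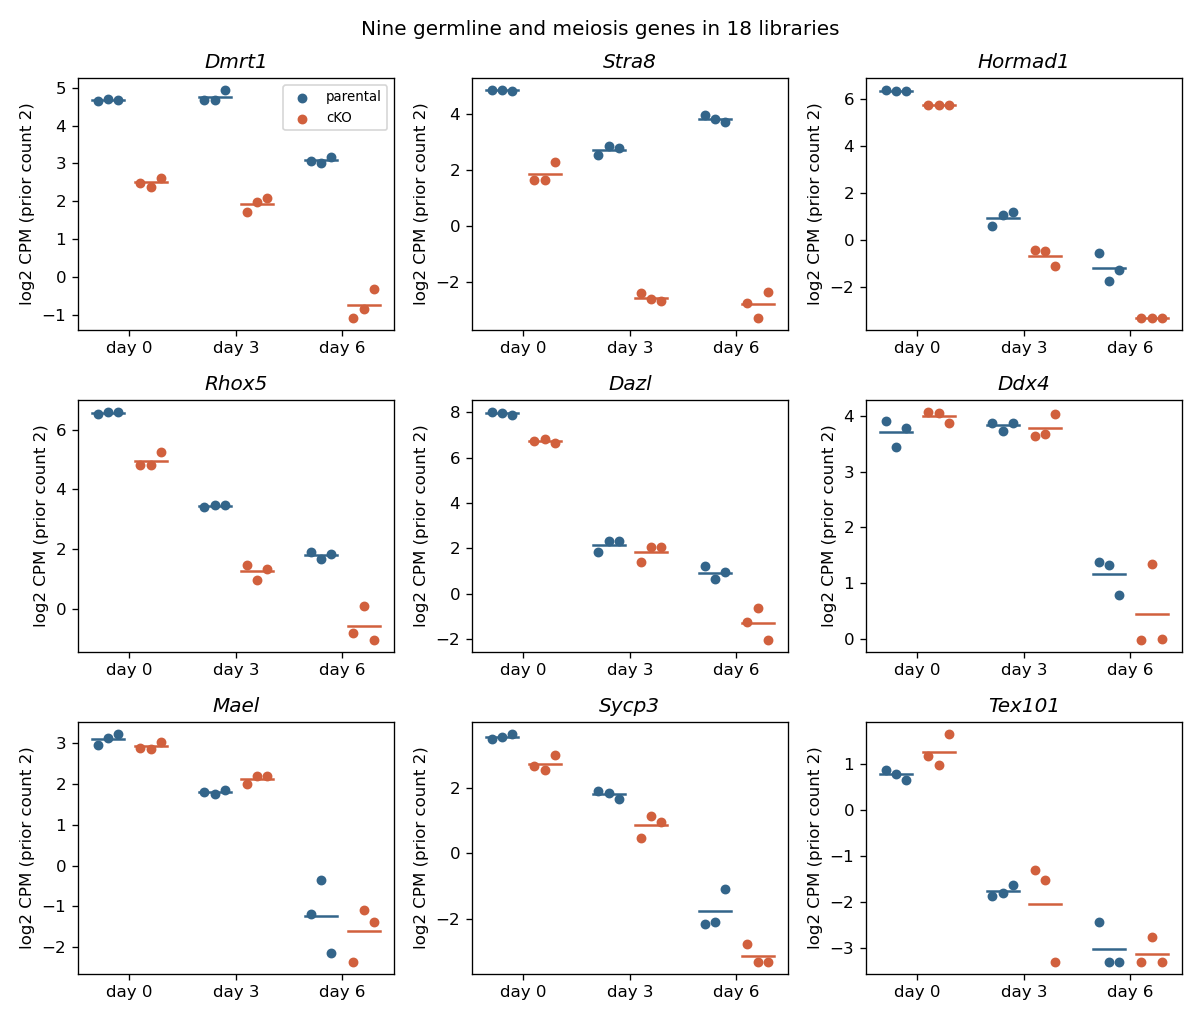
Each dot is 1 library and each bar the mean of 3, on a log2 CPM axis with a prior count of 2, for parental (blue) and cKO (orange) cells at days 0, 3 and 6. Each gene is lower at day 6 than at day 0 in both genotypes, Stra8 in parental cells is higher at day 6 than at day 3, and the cKO dots of Dmrt1, Stra8 and Rhox5 lie below the parental dots at each day.

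Dmrt1 encodes a DM-domain transcription factor that guards male sex determination and the choice between mitosis and meiosis in germ cells. The gene (ENSMUSG00000024837) spans chr19:25505618-25604329 on the plus strand of GRCm38. At day 0 it stood at 24.9, 26.0 and 25.5 CPM in the parental libraries and at 5.54, 5.09 and 6.07 CPM in the cKO libraries. At day 3 the parental libraries held 25.4, 25.3 and 30.7 CPM and the cKO libraries 3.20, 3.84 and 4.19 CPM. Every parental library was above every cKO library at both days, and the parental level had not moved by day 3 beyond the spread between libraries (0.09 ± 0.13; adjusted p = 0.503). At day 6 the levels were 8.24, 7.98 and 8.96 CPM in parental and 0.370, 0.461 and 0.708 CPM in cKO. Between genotypes this was a log2 difference of -2.19 ± 0.14 before differentiation (adjusted p = 2.89e-09), -2.86 ± 0.14 at day 3 (adjusted p = 1.75e-10) and -4.02 ± 0.19 at day 6 (adjusted p = 3.92e-11). The genotype difference thus grew, by -0.68 ± 0.20 from day 0 to day 3 (adjusted p = 0.0214) and by -1.15 ± 0.25 from day 3 to day 6 (adjusted p = 0.00226). The first of these steps was lost without any 1 of 4 libraries, parental day 0 replicate 1, parental day 3 replicate 3, cKO day 0 replicate 3 or cKO day 3 replicate 1 (adjusted p = 0.0539, 0.0713, 0.0646 and 0.0755).

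Stra8, whose product is required for germ cells to enter meiosis, showed the largest difference of the 9 genes at days 0 and 3. At day 6 its rank against Hormad1, which had 0 counts in cKO, cannot be set. The gene (ENSMUSG00000029848) spans chr6:34920163-34939344 on the plus strand. At day 0 the parental libraries held 28.8, 28.5 and 28.0 CPM and the cKO libraries 2.99, 2.98 and 4.75 CPM, which is -2.98 ± 0.18 on the log2 scale (adjusted p = 1.9e-09). By day 3 the parental libraries held 5.67, 7.11 and 6.68 CPM, while the cKO libraries had 2, 1 and 1 counts. At day 6 the parental libraries held 15.3, 14.0 and 13.0 CPM and the cKO libraries had 1, 0 and 2 counts, and the groups did not overlap at any day. The parental rise from day 3 to day 6 was 1.11 ± 0.17 (adjusted p = 9.29e-06). In summed counts the parental level was 95.4 times the cKO level at day 3 (95% interval 37.0 to 352, for counting error only) and 305 times at day 6 (104 to 1481). The fitted changes were called at day 3 (-6.43 ± 0.33; adjusted p = 1.9e-10) and day 6 (adjusted p = 9.24e-12), though at 4 and 3 summed cKO counts their size depends on the prior count. The drop from day 0 to day 3 was steeper in cKO than in parental cells by -3.46 ± 0.46 (adjusted p = 3.77e-05), while the step from day 3 to day 6 was not called as different (-1.62 ± 0.87; adjusted p = 0.259).

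Stra8 was set beside other genes that respond to retinoic acid or handle it. Of 8 such genes, all tested and Stra8 among them, cKO cells had 2 at a higher and 1 at a lower level at day 0, 1 and 3 at day 3, and 2 and 4 at day 6. Over all genes 15.1%, 6.32% and 19.9% were higher and 16.5%, 9.39% and 25.7% lower at these days. The list medians were 0.63, -0.80 and -0.40, against 0, -0.005 and -0.09 over all genes. From day 3 to day 6, 6 of the 8 rose and 2 fell in parental cells (32.6% and 32.7% of all genes), and 5 rose and 1 fell in cKO. The receptor gene Rarb reached 33.8 ± 3.32 CPM in parental and 12.5 ± 7.17 CPM in cKO cells at day 6 (-1.44 ± 0.35; adjusted p = 0.00329). The binding protein gene Crabp2 stood at 240 ± 7.63 and 108 ± 54.4 CPM at that day (-1.15 ± 0.29; adjusted p = 0.00548). In the opposite direction Cyp26a1, which breaks retinoic acid down, was higher in cKO (0.99 ± 0.37; adjusted p = 0.0378). The lowest cKO day 6 library of all these genes was replicate 2, which stood apart from its group. It held 4.19 CPM of Rarb, 45.1 CPM of Crabp2 and 1.84 CPM of Cyp26a1, against group medians of 16.3, 139 and 6.09 CPM. Stra8 had 3 counts in the 3 cKO libraries of day 6. Any part of retinoic acid in the difference of Stra8 was not tested.

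Hormad1 encodes a HORMA-domain protein of the meiotic chromosome axis that marks unsynapsed chromosomes. The gene (ENSMUSG00000028109) spans chr3:95559677-95587671 on the plus strand. Day 0 levels were 83.0, 79.9 and 80.8 CPM in parental and 52.9, 52.8 and 52.4 CPM in cKO libraries (-0.62 ± 0.14; adjusted p = 0.00195). By day 3 it was down to 1.40, 1.99 and 2.20 CPM in parental and 0.657, 0.620 and 0.371 CPM in cKO, so the groups still did not overlap (-1.77 ± 0.26; adjusted p = 0.000129). The fall from day 0 to day 3 was 42.5-fold in parental and 94.4-fold in cKO cells, and the difference between these falls was -1.15 ± 0.29 (adjusted p = 0.0109). That difference was lost without cKO day 3 replicate 3 (-0.94; adjusted p = 0.0513). At day 6 the parental libraries had 14, 6 and 5 counts and the cKO libraries 0, 0 and 0. Against a floor of 3 counts over the group (0.0465 CPM), cKO was at least 7.77-fold lower than parental at day 6 (adjusted p = 5.61e-05).

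Sycp3 encodes a protein of the lateral elements of the synaptonemal complex. The gene (ENSMUSG00000020059) spans chr10:88459569-88473236 on the plus strand and lies wholly within Chpt1, which is read from the other strand. Before differentiation its levels were 10.97, 11.4 and 12.3 CPM in parental and 6.14, 5.72 and 7.88 CPM in cKO libraries (-0.81 ± 0.22; adjusted p = 0.00761). At day 3 the levels were 3.62, 3.50 and 3.02 CPM and 1.27, 2.11 and 1.85 CPM (-0.97 ± 0.25; adjusted p = 0.0104). The groups did not overlap at either day, but the day 3 call was lost without cKO day 3 replicate 1 (-0.76; adjusted p = 0.0782). At day 6 there were 3, 4 and 6 counts in parental and 1, 0 and 0 in cKO, a ratio of 12.1 (95% interval 1.82 to 515) with adjusted p = 0.0044. The sources used here do not say whether counting used strand. Chpt1 stood at 16.4 ± 5.48 CPM in cKO day 6 cells, where Sycp3 had 1 count, and it was called between genotypes at no day.

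Dazl encodes an RNA-binding protein that licenses germ cells for gamete development, and in counts it was the most abundant of the 9 genes at day 0. The gene (ENSMUSG00000010592) spans chr17:50279395-50293636 on the minus strand. At day 0 the parental libraries held 259, 252 and 236 CPM and the cKO libraries 107, 112 and 99.3 CPM (-1.23 ± 0.14; adjusted p = 4.92e-06). By day 3 the levels had fallen to 3.51, 4.86 and 4.89 CPM in parental and 2.54, 4.09 and 4.03 CPM in cKO, and the groups overlapped (-0.35 ± 0.19; adjusted p = 0.26). At day 6 they were apart again, at 2.24, 1.45 and 1.82 CPM in parental and 0.324, 0.553 and 0.142 CPM in cKO (-2.39 ± 0.33; adjusted p = 2.34e-05). Dazl was the only one of the 9 genes called higher in the genotype difference of the day 0 to day 3 change (0.88 ± 0.24; adjusted p = 0.0166). That call was lost without cKO day 3 replicate 2 or replicate 3 (adjusted p = 0.062 and 0.0679). The step from day 3 to day 6 differed by -2.04 ± 0.40 (adjusted p = 0.00133).

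Rhox5 is an X-linked homeobox gene of the reproductive homeobox cluster, active in Sertoli cells and in the early embryo. The gene (ENSMUSG00000095180) spans chrX:37804842-37808876 on the plus strand. Rhox5 stood at 92.6, 96.9 and 95.7 CPM in parental and 28.1, 27.8 and 37.8 CPM in cKO libraries at day 0 (-1.60 ± 0.14; adjusted p = 1.4e-07). At day 3 the levels were 10.5, 11.002 and 11.03 CPM in parental and 2.63, 1.86 and 2.38 CPM in cKO (-2.22 ± 0.18; adjusted p = 7.64e-08). At day 6 they were 3.63, 3.04 and 3.44 CPM and 0.462, 0.967 and 0.378 CPM (-2.46 ± 0.24; adjusted p = 2.27e-07). The groups did not overlap at any day. The genotype difference widened from day 0 to day 3 by -0.62 ± 0.23, which was not called (adjusted p = 0.0628) but was called by DESeq2 (adjusted p = 0.0214) and with total counts (0.0452).

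Ddx4, the mouse vasa homologue and an RNA helicase of the nuage, did not differ between genotypes beyond the test's threshold in the fit of all 18 libraries. The gene (ENSMUSG00000021758) spans chr13:112598333-112652475 on the minus strand. Levels at day 0 were 14.96, 10.9 and 13.7 CPM in parental and 16.8, 16.7 and 14.7 CPM in cKO libraries (0.29 ± 0.22; adjusted p = 0.374). In day 0 libraries alone Ddx4 was called higher in cKO (0.30; adjusted p = 0.0482). At day 3 the levels were 14.7, 13.3 and 14.7 CPM and 12.4, 12.8 and 16.3 CPM (-0.04 ± 0.22; adjusted p = 0.949). Neither genotype had moved from day 0 to day 3 past the threshold, and Ddx4 was the only one of the 9 genes for which this held in both. At day 6 the levels had fallen to 2.49, 2.40 and 1.63 CPM in parental and 0.879, 2.44 and 0.897 CPM in cKO (-0.65 ± 0.30; adjusted p = 0.0813). The high cKO library was replicate 2, the one that stood apart, and without it Ddx4 was lower in cKO at day 6 (-1.33; adjusted p = 7.59e-05), as it was with total counts (-0.73; adjusted p = 0.0394).

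Mael encodes a nuage protein needed to silence transposons in the testis. The gene (ENSMUSG00000040629) spans chr1:166201201-166238747 on the minus strand. Mael stood at 7.73, 8.66 and 9.32 CPM in parental and 7.34, 7.13 and 8.07 CPM in cKO libraries at day 0 (-0.19 ± 0.23; adjusted p = 0.597). At day 3 the levels were 3.39, 3.27 and 3.54 CPM and 3.94, 4.46 and 4.50 CPM (0.34 ± 0.24; adjusted p = 0.414). At day 6 there were 8, 20 and 2 counts in parental and 2, 8 and 6 in cKO (-0.74 ± 0.45; adjusted p = 0.188). The day 3 groups did not overlap, cKO being the higher, as was the case for 40.1% of all genes in either direction. Without parental day 6 replicate 3 Mael was called lower at day 6 (-1.05; adjusted p = 0.0453).

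Tex101, which encodes a glycoprotein of the germ cell surface, was close to the limit of detection. The gene (ENSMUSG00000062773) spans chr7:24668007-24676675 on the minus strand. At day 0 it had 28, 29 and 24 counts in parental and 29, 24 and 49 counts in cKO libraries (0.56 ± 0.41; adjusted p = 0.334). In day 0 libraries alone Tex101 was called higher in cKO (0.58; adjusted p = 0.0416). By day 3 there were 3, 5 and 6 counts in parental and 7, 4 and 0 in cKO, and by day 6 there were 2, 0 and 0 and 0, 1 and 0. A difference between genotypes was not detectable at this depth after day 0. Its calls over time from day 3 to day 6 were each lost without any 1 of 3 libraries (adjusted p = 0.0624 to 0.118 in parental and 0.0549 to 0.112 in cKO).

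**Figure D2:**
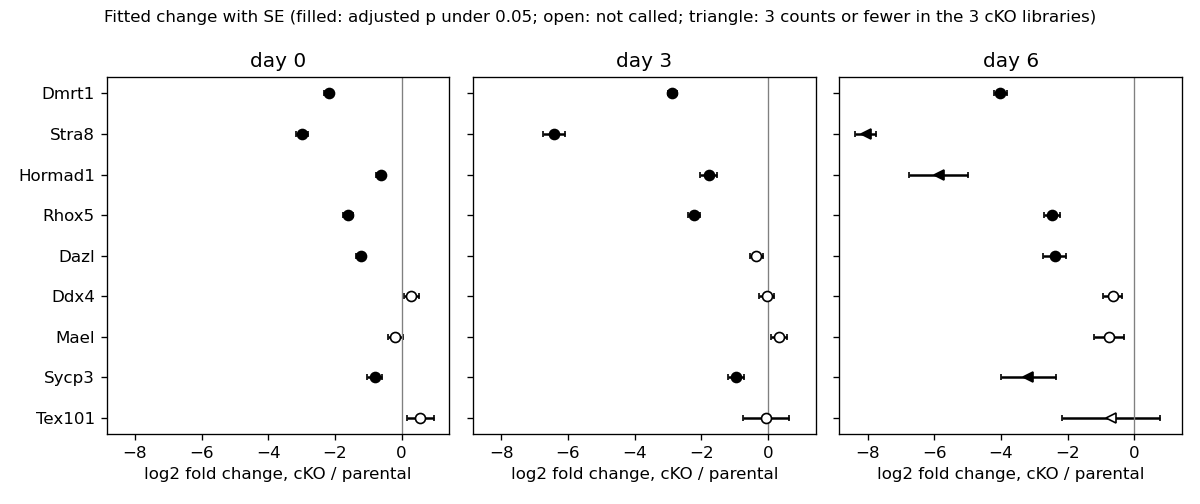
The log2 fold change of cKO over parental cells is plotted with its SE for the 9 genes at days 0, 3 and 6. Filled points passed an adjusted p of 0.05, triangles mark genes with 3 counts or fewer in the 3 cKO libraries, whose fitted size depends on the prior count, and Ddx4, Mael and Tex101 are open at each day.

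Over time most of the 9 genes fell in both genotypes. From day 0 to day 3, 7 of 9 fell in parental cells (75.5% of all genes called, 34.4% down and 41.1% up) and 8 of 9 in cKO (76% called, 35% down and 41% up), with none rising. Tex101, counted in both, had enough counts to be tested only through day 0 (24 to 49, against 0 to 7 at day 3). Its fall from day 0 was thus favoured by the filter and carries no weight in these counts. From day 3 to day 6, 8 fell and 1 rose in parental cells (65.3% of all genes called, 32.7% down and 32.6% up), and 8 fell with none rising in cKO (66.1% called, 34.8% down and 31.3% up). From day 0 to day 3 the days did not overlap for 7 of the 9 genes in parental cells (83.8% of all genes) and 8 in cKO (80.4%). From day 3 to day 6 they did not overlap for 9 in parental cells (74.9%) and 7 in cKO (65.4%). Dazl and Hormad1 lost most of their level in the first step, by 55.5-fold and 42.5-fold in parental cells. Ddx4 fell only in the second step, by 6.40-fold in parental and 9.79-fold in cKO cells. Sycp3 fell in both steps, by 3.42-fold and 17.1-fold in parental cells. The difference between genotypes in these time changes was called for 4 of 9 genes in the first step (1 higher and 3 lower, against 18.6% of all genes called, 9.47% higher and 9.12% lower). Without cKO day 3 replicate 3 the 4 became 2, and without cKO day 6 replicate 2 the calls over all genes rose from 3768 to 6496. In the second step it was called for 3 of 9, all lower (26% of all genes called, 12.4% higher and 13.6% lower), and for 5 without cKO day 6 replicate 2. Comparisons that share a group, such as these and the ones by genotype, are not independent of each other. In bulk RNA, fewer cells that express a gene and less of its RNA per cell cannot be told apart.

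Per kilobase of exon, the order of the 9 genes changed with genotype and day. In parental day 0 cells Rhox5 led with 126 ± 2.97 CPM per kilobase, followed by Dazl (65.2 ± 3.07), Hormad1 (47.0 ± 0.941), Stra8 (15.8 ± 0.214), Dmrt1 (9.81 ± 0.216), Sycp3 (9.15 ± 0.530), Mael (4.95 ± 0.462), Ddx4 (4.37 ± 0.698) and Tex101 (0.977 ± 0.0797). Dmrt1 and Sycp3 did not differ beyond their spread, nor did Mael and Ddx4. In cKO day 0 cells Rhox5 (41.5 ± 7.55), Hormad1 (30.5 ± 0.153) and Dazl (27.8 ± 1.68) still led, but Dmrt1 (2.15 ± 0.188) and Stra8 (1.98 ± 0.566) had dropped below Ddx4 (5.33 ± 0.397), Sycp3 (5.21 ± 0.907) and Mael (4.33 ± 0.285). At day 3 Ddx4 was highest in cKO at 4.59 ± 0.714 CPM per kilobase, while Rhox5 (14.4 ± 0.423) and Dmrt1 (10.5 ± 1.20) were highest in parental cells. At day 6 Stra8 was highest in parental cells at 7.80 ± 0.636 CPM per kilobase, ahead of Rhox5 (4.47 ± 0.400), whereas in cKO every gene was below 1.

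Wider lists of germline genes, which include the 9, were read against all genes, of which 16.5%, 9.39% and 25.7% were lower and 15.1%, 6.32% and 19.9% higher in cKO at days 0, 3 and 6, with medians of 0, -0.005 and -0.09. Among 11 tested genes of germ cell specification there were 5 lower and 2 higher at day 0, 6 lower and none higher at day 3, and 8 lower and 1 higher at day 6, with medians of -0.74, -1.06 and -1.68. The transcription factor gene Tfap2c had 22.8 ± 1.35 CPM in cKO against 60.2 ± 1.26 CPM in parental cells (-1.40 ± 0.18; adjusted p = 1.43e-05), and the helix-loop-helix gene Sohlh2 at 35.3 ± 1.16 and 70.2 ± 1.86 CPM (-0.99 ± 0.20; adjusted p = 0.000886). The 2 that were higher were Prdm14, a regulator of germ cell fate and pluripotency (1.30 ± 0.22; adjusted p = 0.000217), and Ifitm3, an interferon-induced gene also used as a marker of early germ cells (0.59 ± 0.12; adjusted p = 0.00122). The receptor gene Kit, at 195 ± 14.3 and 222 ± 5.99 CPM, was not called. Of the 6 tested genes of meiotic entry, 4, 3 and 3 were lower at days 0, 3 and 6 and none was higher. Rec8, a meiotic cohesin gene, was lower by -1.24 ± 0.19, -1.59 ± 0.20 and -1.99 ± 0.19 (adjusted p = 6.15e-05, 2.87e-05 and 3.37e-07).

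Of 13 tested genes of the synaptonemal complex and chromosome axis, 7, 8 and 9 were lower in cKO at days 0, 3 and 6, and 0, 0 and 1 higher. At day 0 the meiotic cohesin genes Smc1b (4.91 ± 0.369 against 31.4 ± 1.22 CPM; -2.68 ± 0.19) and Stag3 (23.6 ± 1.32 against 60.6 ± 2.07 CPM; -1.36 ± 0.14) and the Hormad1 paralogue Hormad2 (5.55 ± 0.270 against 26.2 ± 0.938 CPM; -2.24 ± 0.22) were lower, with adjusted p = 1.07e-08, 6.72e-07 and 4.18e-07. Hormad2 lies on chromosome 11. The central element gene Syce2 was not called at day 0 (-0.26 ± 0.13) and was lower at day 6 (-0.95 ± 0.15; adjusted p = 5.39e-05). Of 11 tested recombination genes 5, 3 and 5 were lower and 0, 0 and 1 higher. Dmc1, the meiotic recombinase, was lower at each day (-0.84 ± 0.14, -0.77 ± 0.14 and -2.53 ± 0.20).

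Of 17 tested genes of the nuage and piRNA list, 3 were lower with none higher at day 0, 5 and 0 at day 3, and 6 and 3 at day 6, with list medians of -0.19, -0.48 and -0.95. The share lower at day 0 and the share higher at day 6 were near those over all genes (16.5% and 19.9%). Tdrd12, a Tudor-domain gene, had 93.4 ± 1.73 CPM in cKO against 159 ± 3.05 CPM in parental cells (-0.76 ± 0.11; adjusted p = 2.05e-05). Gpat2, an acyltransferase gene of the same pathway, reached -2.77 ± 0.35 at day 3 (adjusted p = 1.82e-05). The immunophilin gene Fkbp6 (0.29 ± 0.26) was, like Ddx4 and Mael, not called at day 0. The 3 higher genes of day 6 were Tdrd7, Tdrd1 and Henmt1 (0.62 ± 0.18, 0.98 ± 0.32 and 2.75 ± 0.57), of which Tdrd1 was named after its values were seen, to complete the count. For Tdrd1 and Henmt1 the highest cKO library was replicate 2, which stood apart (1.66 and 1.47 CPM, against group medians of 0.992 and 0.694 CPM). Henmt1 had 9 summed counts in parental cells at that day.

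Of 6 tested genes of the Rhox cluster, 2, 2 and 4 were lower in cKO at days 0, 3 and 6 and none was higher. Rhox6 and Rhox9 were not called at day 0 (2.60 ± 0.534 against 2.09 ± 0.287 CPM and 2.38 ± 0.185 against 2.22 ± 0.214 CPM) and lower at day 6 (-2.26 ± 0.61 and -1.87 ± 0.52; adjusted p = 0.00666 and 0.00688). These genes have close relatives in the cluster, and the sources used here do not say how shared reads were counted. In the list of other testis genes 6, 7 and 6 of 12 were lower and none higher, and 3, 4 and 4 outside chromosome 11. Usp26, an X-linked deubiquitinase gene, had 14.4 ± 2.73 CPM in cKO against 149 ± 2.22 CPM in parental cells at day 0, and at 0.262 ± 0.161 and 11.7 ± 0.639 CPM at day 6. Tex19.1, on chromosome 11, was lower by -0.96 ± 0.12, -2.12 ± 0.16 and -4.27 ± 0.30 at the 3 days, and the tubulin gene Tuba3a by -0.72 ± 0.13, -1.10 ± 0.22 and -3.05 ± 0.61. Of 3 tested genes of later gametes, 0, 1 and 0 were lower; the gene was Zp3 of the egg coat (-1.96 ± 0.44 at day 3; adjusted p = 0.00417).

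**Figure D3:**
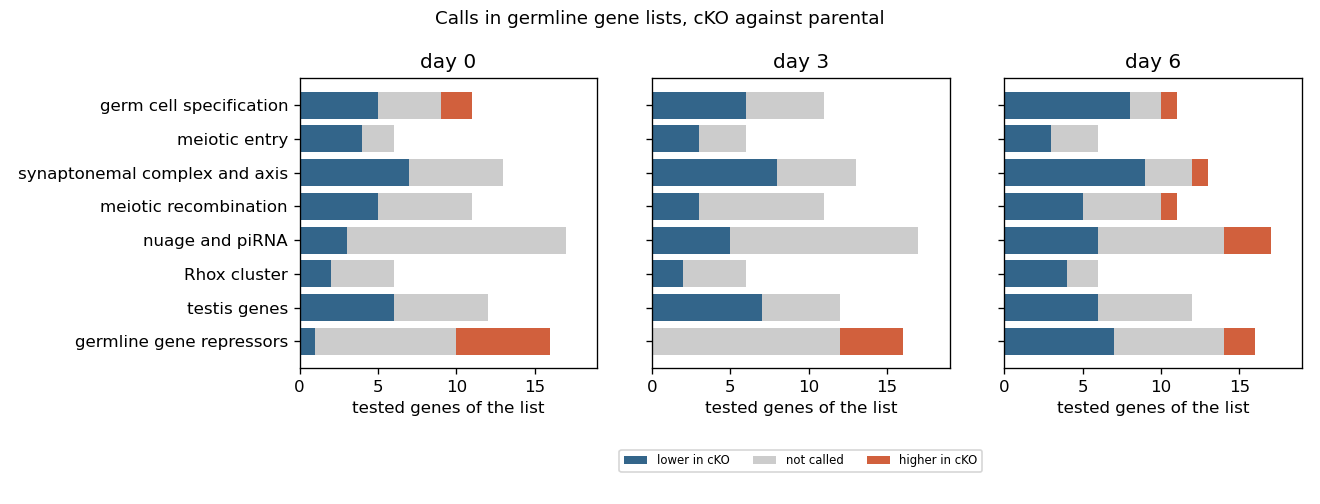
Bars count the tested genes of 8 lists that were lower (blue), not called (grey) or higher (orange) in cKO at days 0, 3 and 6. The synaptonemal complex and axis list holds 7, 8 and 9 lower genes of 13, and the repressor list 1, 0 and 7 of 16.

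Genes whose products are known to repress germline genes were also counted. Of 16, all tested, cKO had 6 at a higher and 1 at a lower level at day 0, 4 and 0 at day 3, and 2 and 7 at day 6. The shares over all genes were 15.1% and 16.5%, 6.32% and 9.39%, and 19.9% and 25.7%, and the list medians were 0.13, 0.14 and -0.20. Dnmt3b, a de novo DNA methyltransferase gene, was higher at each day (0.87 ± 0.09, 0.63 ± 0.09 and 0.59 ± 0.09) and reached 997 ± 134 CPM in cKO against 643 ± 47.2 CPM in parental cells at day 3. E2f6 was higher at day 0 (0.51 ± 0.08; adjusted p = 9.24e-05), and Mga was lower (-0.49 ± 0.09; adjusted p = 0.000364). The maintenance genes Dnmt1 and Uhrf1 were not called at days 0 and 3 and were lower at day 6 (-0.57 ± 0.08 and -0.66 ± 0.14; adjusted p = 2.96e-05 and 0.00145). RNA levels do not give the activity of these proteins.

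Markers of some other cells and states also differed between genotypes. Over all genes 15.1%, 6.32% and 19.9% were higher and 16.5%, 9.39% and 25.7% lower in cKO at days 0, 3 and 6. The summed level of the 9 ran from 503 to 524 CPM in parental and 229 to 234 CPM in cKO libraries at day 0, from 68.3 to 76.9 and 27.1 to 33.7 CPM at day 3, and from 29.6 to 33.0 and 2.22 to 4.84 CPM at day 6. At day 0 all 11 tested 2-cell-like markers were higher in cKO, with sums of 158 to 160 CPM against 30.9 to 34.8 CPM. The list of 10 naive pluripotency markers also held the more general pluripotency genes Pou5f1 and Sox2. Of the 10, 4 were higher and none lower in cKO at day 0 (9097 to 9603 against 7399 to 7536 CPM). At day 3, 6 were lower (600 to 665 against 696 to 739 CPM), and at day 6, 7 were lower (68.0 to 71.5 against 250 to 258 CPM). Of 10 fibroblast and feeder markers 6 were lower at day 0 (351 to 360 against 1064 to 1147 CPM), 1 higher and 1 lower at day 3, and 8 higher at day 6 (1980 to 2130 against 1291 to 1369 CPM). Of 9 trophoblast markers 4 were higher at day 0 (73.0 to 83.3 against 36.1 to 39.2 CPM) and 2 lower at day 3 (39.4 to 49.7 against 64.9 to 73.6 CPM). At day 6, 5 were higher and 2 lower (408 to 2136 against 149 to 169 CPM). At that day extraembryonic endoderm markers were higher in 4 of 8 (110 to 115 against 39.3 to 42.5 CPM). Mesoderm markers were higher in 2 and lower in 1 of 8 at day 6 (79.3 to 293 against 182 to 197 CPM). At day 3, 2 of the 8 were lower and none higher, and the sums did not overlap (36.8 to 81.5 against 283 to 364 CPM). The day 6 mesoderm counts and the day 6 count of lower trophoblast markers were near or below the shares over all genes. The day 6 cKO sums of trophoblast and mesoderm markers varied widely within a group whose replicate 2 stood apart. Of the 5 tested markers of the somatic gonad, Sox9, on chromosome 11, and Foxl2 were higher at day 0, and Cyp17a1 and Fshr are not analysed here. The part of these cells or states in the differences of the 9 genes was not tested.

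**Figure D4:**
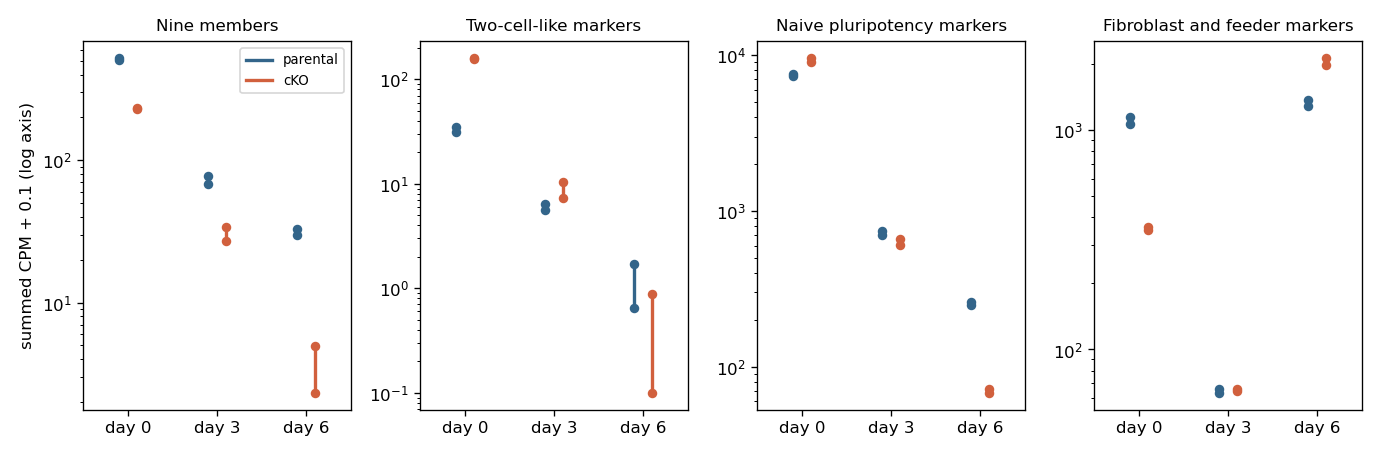
The lowest and highest library of each group are joined for the summed CPM of the 9 genes and of 3 marker lists, on a log axis after adding 0.1. At day 0 the 9 genes are lower in cKO (229 to 234 against 503 to 524 CPM) while the 2-cell-like markers are higher.

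Across the 18 libraries the 9 genes were not all alike. Pearson's r of log2 CPM between pairs ran from 0.26 for Stra8 and Ddx4 to 0.99 for Hormad1 and Dazl, and it was 0.95 for Ddx4 and Mael and 0.84 for Dmrt1 and Stra8. These values share the steps of day and genotype and are a description. For each gene the 3 nearest among 13400 other genes (13401 for Tex101) with at least 1 CPM on average were listed, and r ran from 0.956 to 0.994. By falling r, Hormad1 lay nearest to the naive pluripotency gene Zfp42, Tuba3a and Ash2l (0.99 each). Mael lay nearest to Gart, Cbs and then Pou5f1, which encodes Oct4 (0.98 each). For Ddx4 they were Gc, Zfp979 and then Dppa2, a pluripotency-associated gene (0.98 each). For Sycp3 they were Cnpy1, Nphs1os and then Lefty2, a Nodal antagonist gene (0.99 each). Rhox5 had Nup88, Hormad2 and Tex19.1 (0.99 each), and Dmrt1 had Mtif2, Ncbp3 and then Usp26 (0.98, 0.97 and 0.97). Dazl had Mpdu1, Hormad1 and Akap1 (0.99 each), and Tex101 had Cd3e, Fkbp6 and Syngr1 (0.98, 0.98 and 0.97). Of the 27 nearest genes 9 lie on chromosome 11, which held 8.25% of the genes compared. The nearest genes of Stra8 were Spice1, Lrrc45 and Mpg (0.97, 0.97 and 0.96).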

How the data were processed

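Bulk RNA of 18 libraries, 3 in each of 6 groups, was analysed from the raw counts per Ensembl gene that the authors deposited, with no normalization. Per the submitters' processing notes, Novoalign (no version), DESeq2 1.10.0 and the builds mm10 and GRCm38 were used. The sources used here name no counting tool, annotation release or strand setting. GENCODE M21 gave coordinates and exon lengths and held 25234 of 25279 identifiers.

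The tests ran under edgeR 4.0.16 with limma 3.58.1 (R 4.3.3), DESeq2 1.42.0 served as an alternative, and figures came from matplotlib 3.10.9 under Python 3.11.15. Genes passing filterByExpr were scaled with TMM factors, and 1 mean per group was fitted over all libraries by robust quasi-likelihood in edgeR (two-sided F tests, Benjamini-Hochberg over 20267 genes, called under 0.05). SE is the log2 fold change divided by the square root of F. Alternatives were RLE factors, total counts, DESeq2's Wald test, no filter, a filter at 1 CPM in 3 libraries, fitting only a contrast's own libraries, and leaving out each library. List counts outside chromosome 11 were added after seeing the data. The fits were tested on simulated data.

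The 9 genes and the lists were chosen with earlier results of these data known. Named besides them were per list and comparison the 4 called genes of lowest adjusted p, the 2 most abundant uncalled genes and every called gene where 5 or fewer were called, and the 3 nearest genes of each of the 9. Chpt1 was added for its overlap with Sycp3. A list gene that this rule names is not reported here. Other list genes absent from the table are not analysed here. Counting intervals are exact binomial and cover counting error only.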

Additional observations from a re-analysis of the deposited data

Results flagged for a closer look

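The change over time differed between genotypes, by the edgeR test of the difference itself, in 7 cases among the 9 genes. From day 0 to day 3 the cKO change differed from the parental one by -3.46 for Stra8 (adjusted p = 3.77e-05), by -1.15 for Hormad1 (adjusted p = 0.0109), by -0.68 for Dmrt1 (adjusted p = 0.0214) and by 0.88 for Dazl (adjusted p = 0.0166), all on the log2 scale. From day 3 to day 6 it differed by -1.15 for Dmrt1 (adjusted p = 0.00226), by -2.04 for Dazl (adjusted p = 0.00133) and by -4.09 for Hormad1 (adjusted p = 0.00984). The Hormad1 value of the second step rests on cKO day 6 libraries with 0 counts, so its size depends on the prior count. That of Stra8 rests on 4 summed counts in the cKO day 3 libraries, and its size depends on the prior count too. Groups of 3 libraries are too small for the test for single outlying libraries.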

How the results depend on the processing

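The number of the 9 genes called kept within 1.5 times of its value in all comparisons under RLE factors, total counts, no filter, 1 CPM in 3 libraries, DESeq2 and the fit of the contrast's libraries alone, and the direction of every call was kept. With libraries left out in turn it was 6 at day 0, 4 to 5 at day 3 and 6 to 7 at day 6 between genotypes, 7 and 8 to 9 over time in parental cells, 8 and 7 to 8 in cKO, and 2 to 5 and 3 to 5 for the differences of time changes, the 2 without cKO day 3 replicate 3 and the last 5 without cKO day 6 replicate 2. Day 0 libraries alone called 8 genes, with Ddx4 (0.30; adjusted p = 0.0482) and Tex101 (0.58; adjusted p = 0.0416) higher in cKO, and day 6 libraries alone called 4, with Hormad1, Sycp3, Mael and Tex101 not tested for low counts. Over all genes, 3185 calls at day 3 became 5874 in day 3 libraries alone and 6068 without cKO day 6 replicate 2, 9238 at day 6 became 5721 in day 6 libraries alone, and 3768 for the first difference of time changes became 6420 and 6496. Signs turned, with no call, with no filter for the parental day 0 to day 3 change of Dmrt1 (-0.056) and Ddx4 (-0.040). With single libraries left out these ran from -0.0013 to 0.14 and from -0.014 to 0.20. The genotype change ran from -0.17 to 0.046 for Ddx4 at day 3, and from -0.74 to 0.49 and from -2.47 to 1.76 for Tex101 at days 3 and 6. Stra8 in cKO from day 3 to day 6 ran from -1.36 to 0.019, and the differences of time changes from -0.31 to 0.041 (Sycp3, first step), -0.75 to 0.0032 (Rhox5, second step) and -2.40 to 1.82 (Tex101, second step). With total counts the median of all genes moved from 0 to 0.17 in the parental change from day 3 to day 6 and from -0.06 to 0.05 in cKO. Without the filter the share of calls that were higher went from 43.7% to 53.8% at day 6 and from 47.7% to 60.5% for the second difference of time changes. The causes were not tested. No paired analysis was possible because the labels give no replicate number shared between groups. Depth limits Tex101 after day 0, Stra8 in cKO at days 3 and 6, and Hormad1 and Sycp3 in cKO at day 6.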
